A study of Arabidopsis thaliana with 18 samples.

Results

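Of the 18 samples of the series, 15 came from Arabidopsis thaliana lines of the SAIL and SALK insertion collections. These were compared by the collection named in the sample title. There were 6 SAIL lines (ban-7, tt3-3, tt3-4, tt5-3, tt8-12 and ttg1-24) and 9 SALK lines (ban-6, tt1-4, tt1-5, tt5-4, tt8-8, tt8-9, tt8-10, tt8-11 and ttg1-23). The GK line tt8-7 and Col-0, the wild type, stayed out of every test and are given as levels only. Each line carried a named allele of 1 of the flavonoid loci BAN, TT1, TT3, TT5, TT8 and TTG1, and each line had 1 library. All were seedlings shaken for 4 days in 3% sucrose under 24 h of light. The loci ban, tt5, tt8 and ttg1 had lines of both collections (4 SAIL and 7 SALK libraries), whereas tt1 had SALK lines only and tt3 had SAIL lines only, so the collection and the locus cannot be told apart outside those 4 loci. Whether the lines were grown as separate cultures is not stated. Each p-value reflects the spread among the libraries of its own test. As each library is a different allele, that spread can hold allele, locus, culture and technical differences, which cannot be told apart.

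Both collections were made by letting Agrobacterium insert a T-DNA, a piece of bacterial plasmid DNA, at scattered places of the plant genome. A line is chosen for its insertion in a gene of interest, but it can carry further insertions, deletions and rearrangements. The collections used different T-DNA vectors and selection markers, and part of the SAIL collection was made in plants mutant for QRT1, a pectin methylesterase gene needed for pollen grains to separate. The labels do not say which SAIL lines belong to that part, and they give neither insertion positions nor the number of insertions.

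The gene start regions of the 3 genes on which the collection comparison turns are shown first. Each sequence, from the TAIR10.1 assembly of RefSeq, runs from 250 bases before to 50 bases after the annotated start, and the transcribed bases are in capitals. AT1G75945 is read from the minus strand of chr1:28515867-28516166, MEE65 (AT2G01280) from the plus strand of chr2:145426-145725 and AT5G24240 from the minus strand of chr5:8234101-8234400.
AT1G75945: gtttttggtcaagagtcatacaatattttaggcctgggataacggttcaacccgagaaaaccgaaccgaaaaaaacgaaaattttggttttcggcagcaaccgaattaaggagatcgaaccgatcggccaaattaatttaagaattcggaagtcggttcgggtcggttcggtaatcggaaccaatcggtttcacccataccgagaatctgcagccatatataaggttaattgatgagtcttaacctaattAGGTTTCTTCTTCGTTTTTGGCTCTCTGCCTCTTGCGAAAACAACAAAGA
MEE65: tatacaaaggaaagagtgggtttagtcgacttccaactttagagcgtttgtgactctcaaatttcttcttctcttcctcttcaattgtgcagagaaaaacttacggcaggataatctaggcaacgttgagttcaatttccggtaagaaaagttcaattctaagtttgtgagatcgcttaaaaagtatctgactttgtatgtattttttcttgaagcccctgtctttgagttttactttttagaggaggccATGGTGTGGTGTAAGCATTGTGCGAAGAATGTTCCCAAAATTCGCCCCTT
AT5G24240: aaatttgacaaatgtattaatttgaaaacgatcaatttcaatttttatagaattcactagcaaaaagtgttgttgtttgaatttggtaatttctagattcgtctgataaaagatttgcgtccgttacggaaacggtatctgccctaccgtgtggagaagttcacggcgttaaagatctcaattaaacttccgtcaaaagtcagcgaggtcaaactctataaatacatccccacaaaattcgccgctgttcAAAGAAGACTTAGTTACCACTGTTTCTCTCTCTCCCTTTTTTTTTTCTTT
The letters TATAAA, searched on both strands, were present in the window of AT5G24240 and absent from the other two, and 50.6% of the windows of 32545 genes held them. The letters TTGACC or TTGACT, the core of elements that WRKY factors bind, were present on either strand in the windows of AT1G75945 and AT5G24240, against 31.8% of all windows. None of these 3 genes had a second genomic match of at least 50 bases at 90% identity or more.

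The comparison of all SAIL with all SALK lines asked whether the collection a line came from goes with differences in transcripts. The number of genes called depended on the tool. With edgeR's quasi-likelihood test 1 of 19878 genes was called (0.00503%), AT1G75945, lower in SAIL, while 3766 genes (18.9%) had an unadjusted p under 0.05, 1849 higher (9.3%) and 1917 lower (9.64%). DESeq2's Wald test on the same counts called 687 (3.46%), 340 higher and 347 lower. The edgeR count was 0 to 18 when 1 library was left out, with 18 without tt8-11, 3 without tt8-9 and 0 without 10 of the 15 libraries. Depth lay between 8057534 (ttg1-24) and 27145377 counts (tt3-4) in SAIL lines and between 13076113 (tt1-5) and 26961420 counts (ttg1-23) in SALK lines.

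AT1G75945, annotated as an uncharacterized protein with 2 exons on chromosome 1 (28515245 to 28515916), stood at 0.313 CPM (counts per 1000000 counts of the library) in ban-7, 1.34 in tt3-3, 0.111 in tt3-4, 1.59 in tt5-3, 0.123 in tt8-12 and 0 in ttg1-24, where 0 counts allow up to 0.372 CPM. In the SALK lines its lowest level was 7.19 CPM, its median 9.25 and its highest 11.2. These levels came from 0 to 36 counts in SAIL and 99 to 233 counts in SALK lines. Every SAIL line lay below every SALK line. The fitted log2 fold change was −3.91 ± 0.53 (SE, adjusted p = 0.0387). Over the 15 fits that leave out 1 library it ran from −4.54 to −3.66, first or second by p in each, and it was called in 4 of them (adjusted p from 9.6e-03 to 0.201). It was not called without the 2 SALK files with Windows line ends (adjusted p = 0.0542), without the ttg1 lines (0.0743), with the locus as a block (0.126), with library size as a covariate (0.0737), or over the 4 shared loci without a locus term (0.501). Outside both collections, Col-0 stood at 0.436 CPM, within the range of the SAIL lines, and the GK line tt8-7 at 4.39 CPM, between the SAIL and the SALK range. Its neighbour SKP1 (AT1G75950), a subunit of SCF ubiquitin ligases that starts 602 bases beyond the start of AT1G75945, stood at a mean of 174 CPM in SAIL and 178 CPM in SALK lines (log2 fold change −0.03).

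MEE65, which RefSeq places on chromosome 2 (145676 to 149394), ran the other way. Its level was 4.32 CPM in ban-7, 7.00 in tt3-3, 8.55 in tt3-4, 6.31 in tt5-3, 7.95 in tt8-12 and 3.97 in ttg1-24. The SALK lines spanned 0.148 to 2.43 CPM with a median of 1.57, so the collections did not overlap. The fitted value was 2.38 ± 0.41 (adjusted p = 0.145), past the threshold with DESeq2 (adjusted p = 3.43e-05) and with the locus as a block (3.28, adjusted p = 0.0165). Col-0 stood at 3.21 CPM, between both ranges, and tt8-7 at 0.354 CPM. The annotation overlaps MEE65 with AT2G03925 on the same strand over 520 bases and with RPI2 on the other strand over 476 bases, and reads there are uncertain. RPI2 also stood higher in SAIL lines, at 0.57 ± 0.19 (adjusted p = 0.162). Its log2 CPM differences were 1.83 at ban, 0.79 at tt5, 0.65 at tt8 and 0.26 at ttg1. Whether the 2 genes share reads was not tested.

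AT5G24240, on chromosome 5 (8230916 to 8234150), was high in 3 of the 6 SAIL lines. It stood at 44.3 CPM in tt3-3, 36.0 in tt8-12 and 78.6 in ttg1-24, and at 1.00 in ban-7, 0.405 in tt3-4 and 1.37 in tt5-3. All SALK lines lay between 0.459 and 1.76 CPM, with a median of 0.772. The 3 high lines carry alleles of different loci, and the other 3 SAIL lines overlapped the SALK range. The fitted value was 4.91 ± 0.93 (adjusted p = 0.145, and 3.07e-05 with DESeq2), a mean over lines of very unlike level. Its last 49 bases overlap AT5G24230 on the other strand. AT2G01422, a non-coding RNA named after its values were seen, was at 16.8 CPM in tt3-3 and 13.7 in tt8-12, and at most 0.529 CPM in the other SAIL and 3.00 CPM in the SALK lines.

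AT5G33390, also named after its values were seen, was low in every SAIL line, at 0.737 to 1.99 CPM with a median of 0.981. Among SALK lines it was at 0.629 CPM in tt5-4 and at 5.81 to 11.8 CPM in the other 8. Without tt5-4 it was the 1 gene called. A stretch of 275 bases with 92.0% identity lies elsewhere on chromosome 5 (12664229 to 12664503), so its counts may be shared with a copy.

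**Figure D1:**
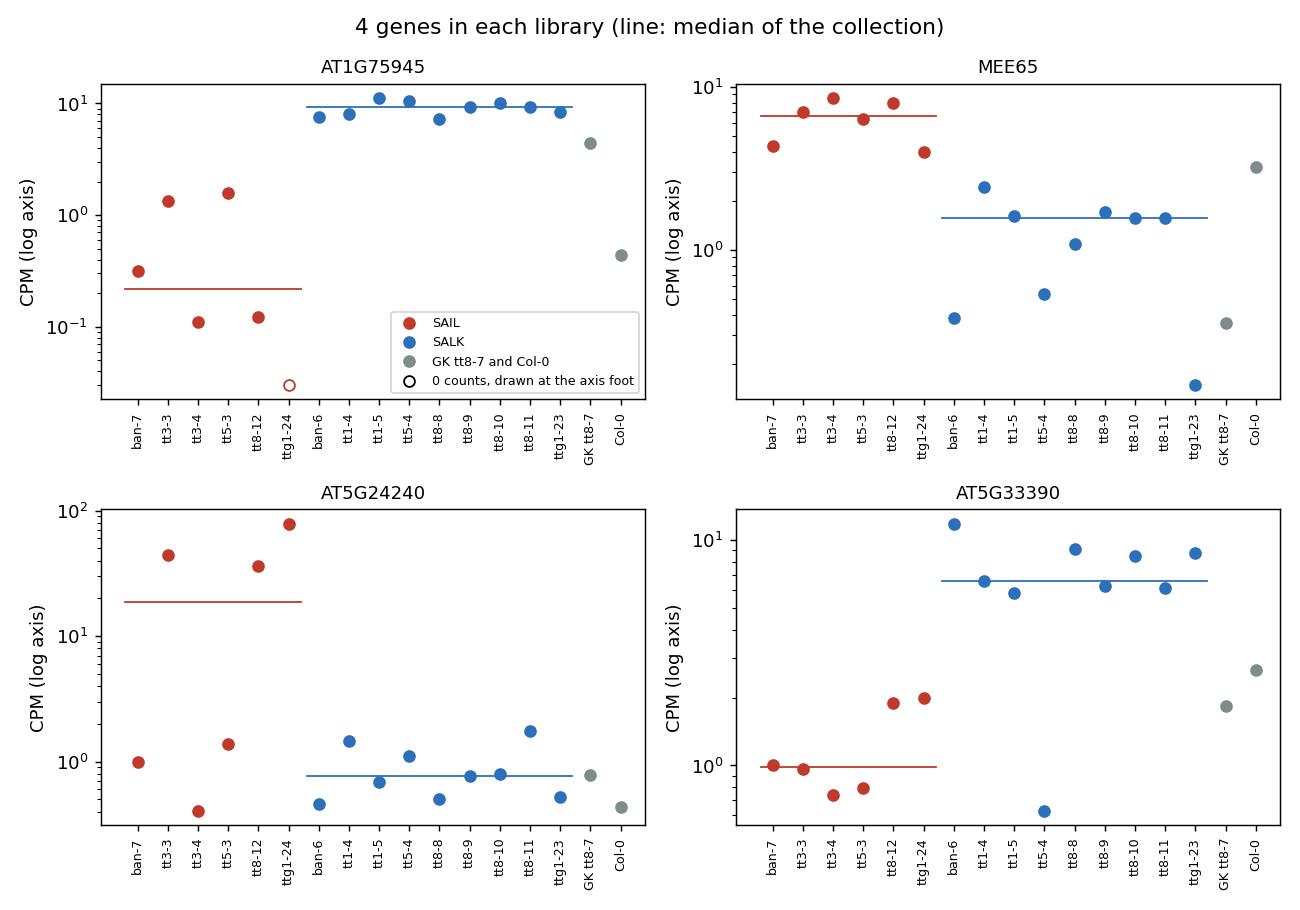
Level of 4 genes in each library, in CPM on a log axis, SAIL lines at the left, SALK lines beside them and the GK line tt8-7 and Col-0 at the right. Horizontal lines are the medians of the collections, and the open point is a library with 0 counts. AT1G75945 and MEE65 separate the collections, AT5G24240 is above 30 CPM in 3 SAIL lines and AT5G33390 is low in all SAIL lines and in tt5-4.

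The other genes of lowest p had small and even differences. BT4 (AT5G67480), a BTB domain scaffold protein, stood at 56.8 to 79.0 CPM in SAIL lines (median 67.9) and at 82.4 to 112 CPM in SALK lines (median 95.7), with no overlap. Its fitted value was −0.50 ± 0.08 (adjusted p = 0.0965). It passed the threshold without tt8-11 (adjusted p = 0.0469) and without tt8-9 (adjusted p = 0.0309). AT4G02360 (−0.56), the serine carboxypeptidase-like gene scpl26 (−0.57) and AT1G19690 (−0.66) were also below every SALK line in all 6 SAIL lines, each at adjusted p = 0.145. AT1G10050 stood at 0.41 with SAIL lines at 64.9 to 77.4 CPM and SALK lines at 48.6 to 61.0 CPM. The glutathione transferase gene GSTU10 was at 0.74 and the carboxylesterase gene CXE16 at 0.53, also at adjusted p = 0.145. In all, 65 genes (0.327%) did not overlap between the collections, 31 with SAIL above (0.156%) and 34 with SAIL below (0.171%), and only 7 of them differed by more than 2-fold. Without the ttg1 lines the number was 156.

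Within the 4 loci that held lines of both collections, the difference was fitted with the locus as a term, which compares SAIL with SALK lines at the same locus. In edgeR 0 of 20170 genes (0%) passed, 4184 (20.7%) reached p under 0.05 before adjustment, and DESeq2 found 1263. The lowest adjusted p was 0.179, for MEE65 at 3.29 ± 0.35. AT1G75945 stood at −4.54 ± 0.59 (adjusted p = 0.204). Leaving out tt8-12 alone raised the count to 639 and moved both genes past the threshold (adjusted p = 0.0225 for MEE65 and 0.03 for AT1G75945), while leaving out any other library gave 0.

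The other genes of lowest p in this fit did not pass the threshold (adjusted p = 0.204 each). CXE20, a carboxylesterase gene, stood at 1.84 ± 0.30, with 22.2 to 55.1 CPM in SAIL and 7.34 to 38.3 CPM in SALK lines. AT4G28000 stood at 1.80, AT5G52750 at 1.28 and AT3G59350 at 1.21, the last with 406 CPM in tt8-12 and 118 to 171 CPM in the other SAIL lines. On the low side were LTPG2, a lipid transfer protein gene, at −0.80, AT5G05880 at −0.75 and CIL at −1.42.

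The single SAIL line of tt8 was also set against its 4 SALK lines, a comparison of 1 library that cannot speak for a collection. In edgeR 0 of 19878 genes passed (0%), 108 (0.543%) reached p under 0.05 before adjustment, and DESeq2 found 3. With 5 residual degrees of freedom, the spread came from the SALK lines of tt8 and tt1 and the SAIL lines of tt3, and the lone library was taken to vary like them.

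Fold differences at a single locus were large in number and unequal. At least 2-fold higher were 2048 genes in ban-7 against ban-6, 1440 in tt5-3 against tt5-4, 204 in tt8-12 against the mean of 4 SALK lines and 1062 in ttg1-24 against ttg1-23. At least 2-fold lower were 3275, 1470, 111 and 903 genes in the same order of loci. Since 3 of these differences set 1 library against 1, they have no replicate check. Only 50 genes (0.252%) shifted the same way at all 4 loci, 36 higher (0.181%) and 14 lower (0.0704%).

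By the smallest of the 4 differences, AT1G75945 led the lower genes with −4.20 at ban, −2.68 at tt5, −5.32 at tt8 and −6.35 at ttg1 (log2 CPM). MEE65 led the higher ones with 3.19, 3.30, 2.34 and 4.14 in the same order. FMO1, the monooxygenase that makes the systemic immune signal N-hydroxypipecolic acid, was among the higher genes at 1.91, 3.09, 1.49 and 2.02, with levels of 1.56 to 2.57 CPM in SAIL and 0 to 1.98 CPM in SALK lines. AT1G32910, AT2G04495 and AT5G59680 were higher at each locus by at least 1.71, 1.56 and 1.48. SWEET3, a member of the sugar transporter family SWEET, was lower by at least 1.54 at each locus, and its level was 0 to 0.993 CPM in SAIL and 0 to 5.66 CPM in SALK lines. PGAZAT, a polygalacturonase gene, AT5G11080 and AT5G53710 were lower at each locus too. All of these levels except those of AT5G59680, MEE65, AT1G75945, SWEET3 and PGAZAT stayed under 3 CPM, and a few counts carry them.

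**Figure D2:**
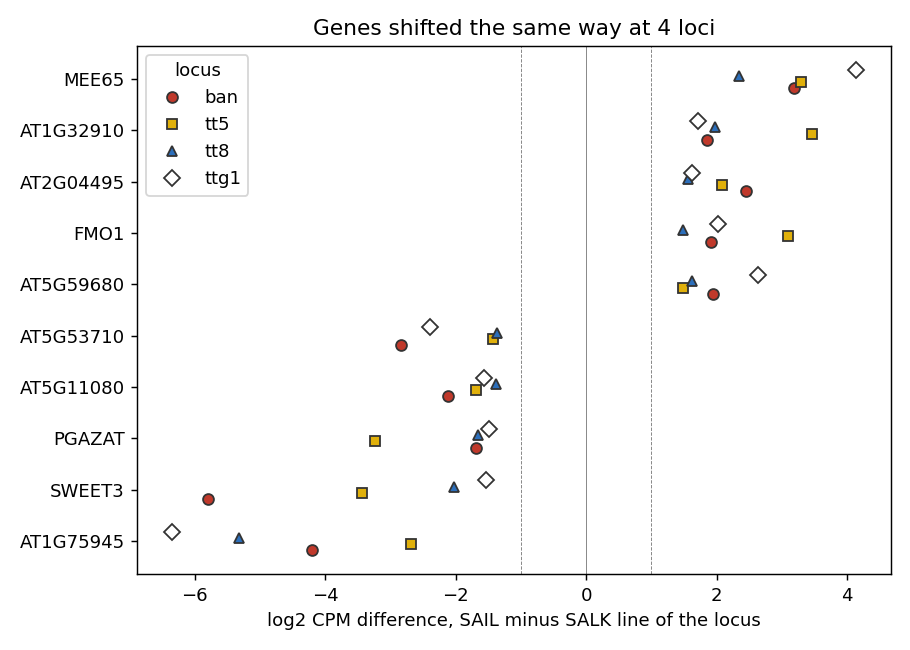
Difference in log2 CPM between the SAIL line and the SALK line or lines of 4 loci (prior count 2), for the genes with the largest smallest difference in each direction. Dashed lines mark a 2-fold difference. All 4 loci lie beyond it on the same side for each gene, and AT1G75945 and MEE65 have the largest smallest difference. SWEET3 lies beyond AT1G75945 at ban and tt5. SWEET3 in ban-7 and AT1G75945 in ttg1-24 had 0 counts, so the size of those differences depends on the prior count.

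Salicylic acid is the hormone of defence against pathogens that feed on living tissue, and camalexin is an antimicrobial indole made from tryptophan. Of 14 genes of both, 11 passed the filter on low counts and PR1, PR2 and PR5, the pathogenesis-related markers, did not, with at most 0.814 CPM in any SAIL line. Of the 11, 10 had a fitted value above 0, against 47.1% of all genes, and the list median was 0.86, against −0.02 for all genes. In edgeR 0 of 11 were called, 5 had an unadjusted p under 0.05 with a value above 0 (9.3% of all genes), and EDS1, PAD4, CBP60G and PAD3 passed with DESeq2, all higher (1.71% of all genes passed so). Over 23 alternatives the median ranged from 0.48 to 1.03. It was 0.50 without the ttg1 lines and 0.51 with library size as a covariate. By library, in log2 CPM centred per gene, the list median was highest in ttg1-24 at 1.04. The next highest was 0.476 in tt3-3. At tt8 the collections did not part, with tt8-12 at −0.0163 and its SALK lines at 0.195 (tt8-9), 0.19 (tt8-11), −0.142 (tt8-8) and −0.193 (tt8-10). At ban, tt5 and ttg1 the SAIL line lay above the SALK line, each 1 library against 1. Start windows of the 14 genes held TATAAA in 11 cases (78.6%, against 50.6% of all genes) and TTGACC or TTGACT in 4 (28.6%, against 31.8%).

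Among its regulators, EDS1, a lipase-like immune hub, stood at 22 to 29.6 CPM in SAIL lines (median 24.7) and at 13 to 23.7 CPM in SALK lines (median 17.8), at 0.50 ± 0.12 (adjusted p = 0.145). Its partner PAD4 stood at 0.52 ± 0.15, with 18.0 to 31.7 CPM in SAIL and 11.4 to 21.1 CPM in SALK lines. CBP60G, a transcription factor that activates salicylic acid synthesis, had a lowest level of 16.4 and a median of 19.5 CPM in SAIL lines, against 3.82 and 9.10 CPM in SALK lines, at 1.22 ± 0.35 (adjusted p = 0.148). Its paralogue SARD1 stood at 0.99 and WRKY70, a regulator of salicylic acid responses, at 1.23 ± 0.62. ICS1, which makes the salicylic acid precursor isochorismate, stood at 0.00 ± 0.33, and NPR1, the salicylic acid co-activator, at 0.15. The ranges of EDS1, PAD4 and CBP60G overlapped between the collections.

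PAD3, the enzyme of the last step of camalexin synthesis, was at 8.20 to 16.9 CPM in SAIL lines and at 1.76 to 10.2 CPM in SALK lines, at 0.99 ± 0.28. CYP71A13, an earlier step of the same pathway, spanned 26.2 to 514 CPM in SAIL and 34.3 to 165 CPM in SALK lines (0.86 ± 0.66). In Col-0 PAD3 stood at 1.46 CPM, below every SAIL line and every SALK line. CBP60G stood at 6.58 CPM in Col-0, below every SAIL line and within the range of the SALK lines. Within the 4 loci the list median was 0.50, with 9 of 11 members above 0 (49.6% of all genes) and 0 called in edgeR.

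**Figure D3:**
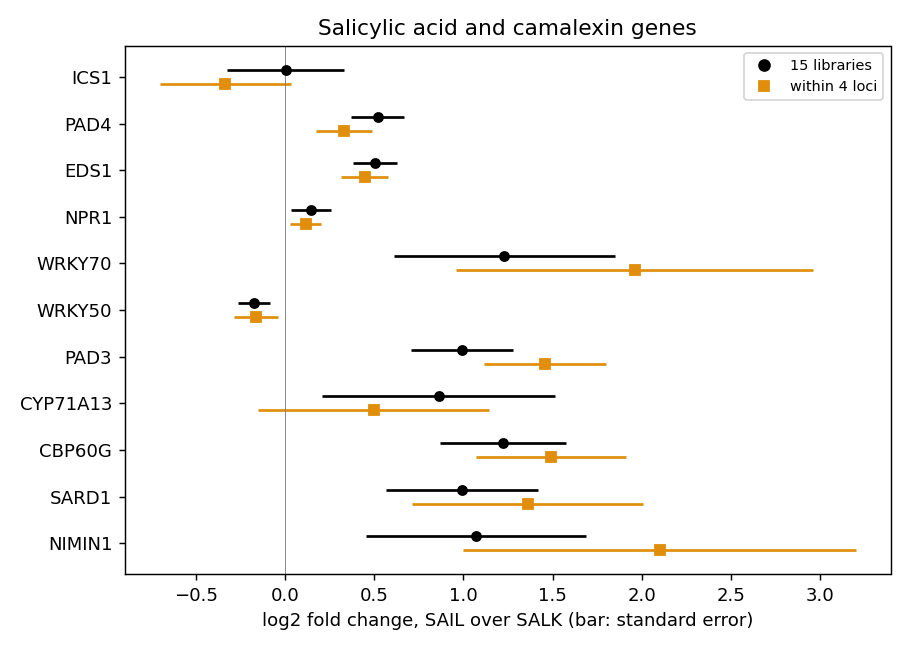
Fitted log2 fold change of SAIL over SALK lines for the 11 tested salicylic acid and camalexin genes, from all 15 libraries (circles) and within 4 loci (squares), with bars of 1 standard error. Most points lie above 0, and ICS1 and WRKY50 lie near or below it.

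Heat shock genes, which encode chaperones, stood above 0 in 10 of 11 cases (median 0.50), but within the 4 loci the median was 0.02, with 6 of 11 above 0. The list was highest in tt3-3, a line of a locus without a SALK partner. HSP21, the chloroplast small heat shock protein, was at 1.75 to 22.5 CPM in SAIL lines and at 1.16 to 7.48 CPM in SALK lines (1.15 ± 0.47, adjusted p = 0.215).

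Seed storage genes, whose proteins fill the embryo, were below 0 in 9 of 9 cases with a median of −2.24, and above 0 in 8 of 9 with a median of 0.77 within the 4 loci. The 12S globulin gene CRA1 spanned 56.5 to 1320 CPM in SAIL and 25.7 to 6640 CPM in SALK lines. The SALK lines tt1-4 and tt1-5, of a locus without a SAIL partner, had the highest list medians of the 15 libraries, and SESA5 reached 5710 CPM in tt1-4. Oil body genes stood at a median of 0.01 over the 15 libraries and 1.89 within loci. At each of these lists 0 members were called in edgeR. In whole seedlings, fewer cells of a type and less RNA per cell cannot be told apart.

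Genes of abscisic acid, cold and late embryogenesis were below 0 in 12 of 12 cases (median −0.31), but in 6 of 12 within loci (median −0.08). KIN2, a cold-induced protein gene, was at 39.0 to 74.6 CPM in SAIL lines and at 56.4 to 187 CPM in SALK lines (−0.99 ± 0.27, adjusted p = 0.145). RD29A, a marker of the same responses, was at 267 to 412 CPM in SAIL and 334 to 801 CPM in SALK lines (−0.65 ± 0.18). In edgeR 0 of the 12 were called, and DESeq2 called 3, all lower, against 3.46% of all genes called in either direction. These 3 were KIN2 (DESeq2 adjusted p = 0.0209), RD29A (0.0274) and RCI2B (0.0477). Genes that turn stored oil into sugar were below 0 in 4 of 4 cases in both fits, with medians of −0.35 and −0.34. Among them MLS, malate synthase of the glyoxylate cycle, stood at −0.50 ± 0.16 (adjusted p = 0.156, and 0.0437 with DESeq2). It was the 1 of the 4 that DESeq2 called, against the same 3.46% of all genes. Photosynthesis genes were below 0 in 14 of 17 cases over the 15 libraries (median −0.21) and in 17 of 17 within loci (median −0.59), with 0 called in edgeR. In the other 15 lists, among them jasmonate, low oxygen, suberin, lignin, phosphate, clock, root hair and cell cycle genes, 0 members were called in edgeR and medians lay between −0.38 and 0.37. With DESeq2 3 of their members passed. As a share of the tested members of the 15 lists, this was no larger than the 3.46% of all genes. They were the lignin pathway gene HCT at 0.35 (DESeq2 adjusted p = 0.0277, 1 of 13 tested in its list) and the nitrate reductase gene NIA2 at 0.61 (0.0493, 1 of 7). The clock gene ELF4 was at −0.64 (0.0437, 1 of 10). Flower and pollen markers summed to 1.36 to 3.10 CPM in SAIL and 1.54 to 9.27 CPM in SALK lines.

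**Figure D4:**
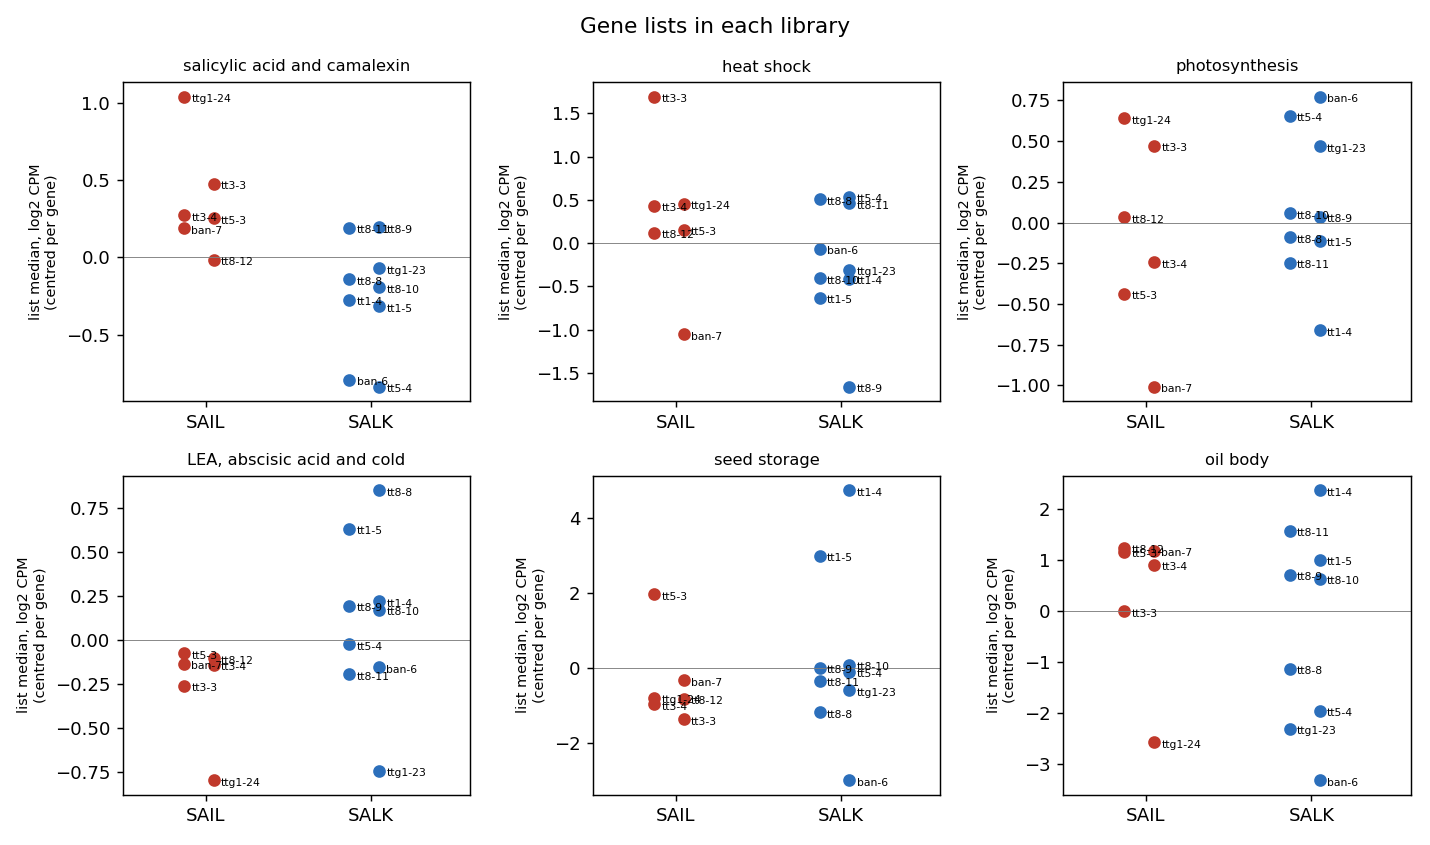
Median log2 CPM of 6 gene lists in each library, centred per gene over the 15 libraries, SAIL at the left and SALK at the right. For the salicylic acid and camalexin list 5 of 6 SAIL lines lie above 0 and 7 of 9 SALK lines below it. For seed storage the SALK lines tt1-4 and tt1-5 lie highest.

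Flavonoid genes overlapped between the collections, as did all but 0.327% of the genes tested. Of 6 early genes 5 were below 0 over the 15 libraries and 5 above 0 within loci (medians −0.35 and 0.58). Of 11 late anthocyanin genes 9 were below and 9 above 0 (medians −0.21 and 0.35). In edgeR 0 were called in either fit, against 0.00503% and 0% of all genes, so this count says little of these lists. Over the 15 libraries 0 had an unadjusted p under 0.05, against 18.9% of all genes. CHS, chalcone synthase, spanned 90.2 to 1680 CPM in SAIL and 275 to 1750 CPM in SALK lines. Of the targeted genes, TTG1 had 0 counts in the SAIL line ttg1-24 and stood at 15.9 CPM in the SALK line ttg1-23, and CHI (TT5) at 4.23 CPM in tt5-3 and 4.50 CPM in tt5-4. DFR (TT3) was not low in the lines labelled tt3, at 211 CPM in tt3-3 and at 274 CPM, the highest of the 15 libraries, in tt3-4. TT8 was at 40.1 CPM in the SAIL line tt8-12. Among SALK lines tt8-8 (102 CPM) and tt8-10 (73.0 CPM) were higher, and tt8-9 (8.49 CPM) and tt8-11 (6.97 CPM) lower. The lines of ban, tt1, tt3 and tt5 stood at 10.2 to 36.9 CPM, and the ttg1 lines at 0.248 and 0.779 CPM. TT8 was thus lower in tt8-9 and tt8-11 than in any line of ban, tt1, tt3 or tt5, while the 3 highest levels were also in lines labelled tt8. The level of the targeted gene gives no support to the labels of the tt3 lines, tt8-8, tt8-10 and tt8-12. These lines go by their titles alone, and other genes were not used to check a label. BAN and TT1 had at most 0.0949 CPM in any line, too few counts to check a label. QRT1 was at 1.06 to 5.13 CPM in SAIL and 2.47 to 8.13 CPM in SALK lines (−0.65 ± 0.32, adjusted p = 0.277). Within loci it stood at −1.15 ± 0.33 (adjusted p = 0.204), with differences of −2.42 at ban, −0.99 at tt5, −0.51 at tt8 and −1.09 at ttg1.

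A line can also lose or gain single transcripts that other lines have or lack. Genes held by 1 library at 0.1 times the level of every other one or less, with the others at 2 CPM or more, numbered 5 in SAIL lines, all in ttg1-24, and 5 in SALK lines, 2 each in ban-6 and tt1-5 and 1 in tt8-10. The mean per line was 0.833 in SAIL and 0.556 in SALK lines (exact two-sided permutation test, p = 0.934). In ttg1-24 they included AT5G24490, AT5G24500, TTG1 and DMR6, a salicylic acid hydroxylase gene, within chromosome 5 from 8365601 to 8383401. TTG1 and AT5G24500 had 0 counts there, while AT5G24490 and DMR6 had 1 count each. In the SALK line tt1-5, AT1G55805 had 0 counts and the adjacent uridine kinase-like gene UKL3 had 0.306 CPM, against 20 CPM or more in the other lines. In ban-6 IBH1, a basic helix-loop-helix repressor of growth, was at 0.229 CPM against 9.41 to 21.1 CPM in the other lines.

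Genes that 1 library held at 10 times every other one or more, a count made after the data were seen, numbered 7 in 4 SAIL lines and 4 in 3 SALK lines. The mean per line was 1.17 in SAIL and 0.444 in SALK lines (exact two-sided permutation test, p = 0.147). In SAIL lines these were AT3G01345 in ban-7, AT1G18280 and AT4G02850 in tt3-3, the transcription factor gene MYB119 and the calcium-dependent kinase gene CPK20 in tt5-3, and AT1G06137 and TBL15 in ttg1-24. AT3G01345 stood at 106 CPM in ban-7 and at most at 5.38 CPM in any other line, and MYB119 had 127 counts in tt5-3 and 0 in each other line. In SALK lines they were ATPMEPCRD in ban-6, AT1G68240 and SESA5 in tt1-4, and AT1G64795 in tt5-4. ATPMEPCRD, a pectin methylesterase gene at 16.4 CPM in ban-6 and at most 0.871 CPM elsewhere, lies on chromosome 2 (17902370 to 17904443), close to IBH1 (17909007 to 17910210), which was low in the same line.

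The collections overlapped on the first axis of variation and nearly parted on the second. The first principal component held 48.8% of the variance and averaged 24.6 ± 40.3 in SAIL lines (SD, n = 6) and −16.4 ± 56.6 in SALK lines (SD, n = 9; exact two-sided permutation test, p = 0.151, adjusted over 4 components 0.302). The second held 14.6% and averaged 19.3 ± 32.9 in SAIL and −12.9 ± 18.5 in SALK lines (exact permutation p = 0.0132, adjusted 0.0528). SAIL lines lay between 1.43 and 85.9, the highest being ttg1-24, and 8 of the 9 SALK lines between −35.4 and −2.21, with ttg1-23 at 23.8. The SAIL line was above every SALK line of its locus at each of the 4 shared loci, and the test took no account of the locus. In a setting added after the data were seen, the score of ttg1-24 was dropped and the component was not recomputed. The scores on the second component then averaged 6.02 in SAIL and −12.9 in SALK lines (exact permutation p = 0.05). Components 3 and 4 gave exact permutation p of 0.768 and 0.480.

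The root mean square log2 CPM difference between libraries averaged 0.750 across collections, 0.656 among SAIL and 0.745 among SALK lines, and the excess across over within collections was 0.0312 (exact two-sided permutation test, p = 0.375). The library most like a given one came from its own collection for 1 of 6 SAIL lines and 6 of 9 SALK lines. For tt8-12 and the SALK line tt8-11 each was the closest to the other.

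**Figure D5:**
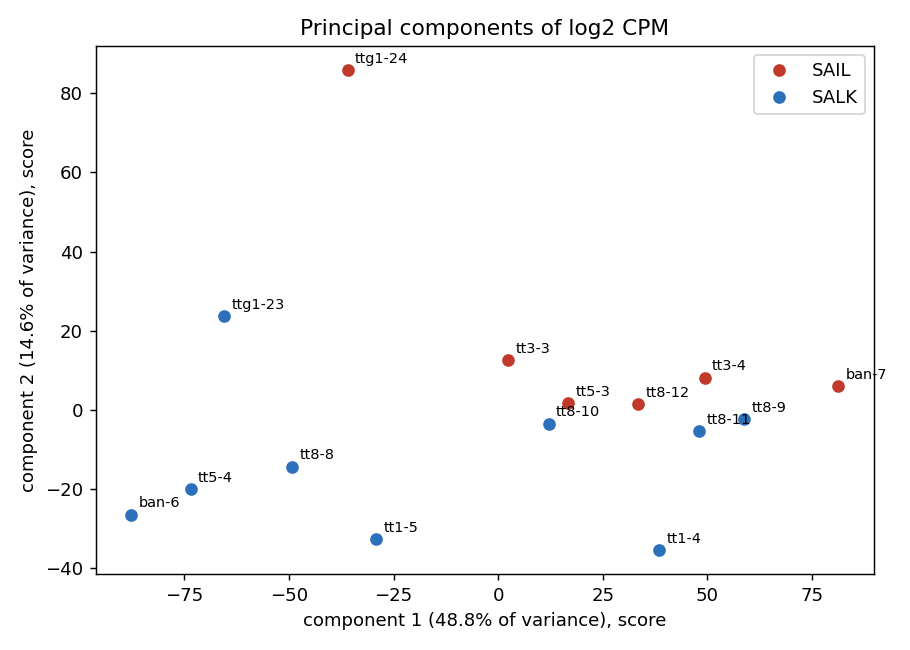
Scores of the 15 libraries on the first and second principal components of log2 CPM, with the share of variance on each axis. SAIL and SALK lines overlap along component 1. On component 2 the SAIL lines lie above 8 of the 9 SALK lines, with ttg1-24 highest at 85.9 and the SALK line ttg1-23 at 23.8.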

How the data were processed

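The authors deposited counts per gene for each library, and the deposited counts were used as they stand. Per the submitters' processing notes, reads were handled with HISAT2 on TAIR10; the sources used here name no counting program, annotation or strand setting, so overlapping genes and near-identical copies are uncertain. Each file held 32547 locus identifiers and 1392 small RNA rows, which hold 0.00637% to 0.0204% of the counts and were left out. Groups follow the titles. Both files of Col-0 were closer than counting noise between separate libraries allows (0.222 chi-square units per degree of freedom, where such noise alone gives about 1). Pairs of the 15 libraries gave 9.54 to 197. The Col-0 files were averaged into 1 sample and do not count as replicates. Whether they stem from 1 library was not tested.

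Tests across genes used edgeR 4.0.16 (R 4.3.3): TMM scaling, filterByExpr, the robust quasi-likelihood F-test, two-sided, with Benjamini-Hochberg adjustment over all genes at 0.05. Every adjusted p without another tool's name is from this test. DESeq2 1.42.0 was the alternative tool. The fit over 15 libraries had 13 residual degrees of freedom. Levels are CPM on the total of locus counts, 0 counts are given a floor of 3 counts, which covers counting error only, and differences between lines use log2 CPM with a prior count of 2. Copies were searched with blastn.

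Tested on simulated data over 19758 genes, the 15-library test recovered 68% of 2-fold and 87.8% of 4-fold changes with 10 false calls, so it made calls at this sample size. The within-locus test, over 19822 genes, recovered 40% and 72.9% with 6 false calls. The simulated counts were drawn independently for each gene and library and held no difference between loci. These shares therefore do not give the power of either test in the real libraries.

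The comparison, its 24 gene lists (243 genes) and the naming rule were chosen with earlier results of these data known. The rule takes the targeted loci, the genes of lowest p or largest called change, list members as counts with examples, genes shifted at all 4 loci, runs of near-absent genes and QRT1. Alternatives were another scaling, another tool, no filter, each library left out, the Windows files or the ttg1 lines left out, and the locus or depth as a term.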

Additional observations from a re-analysis of the deposited data

Results flagged for a closer look

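Dixon's test on 72 sets of levels or scores of 1 collection gave 10 flags, and chance flags about 1 in 20 groups. In the SAIL lines AT3G59350 was at 406 CPM in tt8-12 (others 118 to 171), AT5G05880 at 6.45 CPM in ttg1-24 (12.6 to 15.5) and PGAZAT at 2.73 CPM in ttg1-24 (0 to 0.188). Also in ttg1-24, DFR was at 0 CPM (193 to 274), TT8 at 0.248 CPM (16 to 40.1), TTG1 at 0 CPM (23.5 to 28.6) and the score on component 2 at 85.9 (1.43 to 12.7). Among SALK lines ttg1-23 stood apart at DFR with 0.593 CPM (32.3 to 264), at TTG1 with 15.9 CPM (22.7 to 28.4) and at TT1 with 0.0371 CPM (0 in the others), which is 1 count.

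At TTG1 the SAIL minus SALK difference was −7.26 at ttg1 and −0.25 to 0.15 at the other 3 loci, and an interaction test of locus and collection, added after the data were seen, gave adjusted p = 0.0159. The ttg1 value sets the single line ttg1-24, with 0 counts of the gene it is named for, against the single line ttg1-23. The spread came from other loci only (tt1, tt3 and the SALK lines of tt8), so the value restates the loss of TTG1 in that line and says nothing of the collections. The GK line tt8-7, outside the comparison, held AT1G75945 at 4.39 CPM, against 0.436 CPM in Col-0.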

How the results depend on the processing

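The number of genes called in edgeR over the 15 libraries, 1 as reported, was 687 with DESeq2, and 0 without the 2 Windows files, without the ttg1 lines, over the 4 shared loci without a locus term, and with library size as a covariate. It was 0 to 18 when 1 library was left out (18 without tt8-11, 3 without tt8-9). Within loci the count of 0 became 1263 with DESeq2 and 0 to 639 when 1 library was left out, with 639 only without tt8-12. Without that line tt8 held SALK lines only, and the difference was fitted from the ban, tt5 and ttg1 lines. For tt8-12 against its SALK lines it was 3 with DESeq2. The number shifted the same way at 4 loci was 341 at 1.5-fold, against 50 at 2-fold, and the number not overlapping was 156 without the ttg1 lines, against 65. The difference in near-absent genes per line reversed to −0.875 without the ttg1 lines (exact permutation p = 0.161), since all 5 of the SAIL genes came from ttg1-24. The cause of the other changes was not tested.

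AT1G75945 kept its direction in all 23 alternatives of the 15-library comparison and was called in 7 of them. The SAIL minus SALK difference on the first component stayed above 0 when 1 library was left out, at 30.0 to 54.8. No paired analysis by replicate number was possible because the labels give none. With the locus as a block, 1 gene was called, MEE65 and not AT1G75945. At 8057534 counts in ttg1-24, a gene with 0 counts there may stand at up to 0.372 CPM.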
